A study of Mus musculus with 2 samples.

Results

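The barcodes described here are oligodendrocyte barcodes of the injured optic nerve that held few RNA molecules and almost no Malat1, a long noncoding RNA that stays in the nucleus. They were chosen from measured values. A member was typed by the authors as an oligodendrocyte, came from the injured library, held under 1500 UMIs and had under 0.5% of them from Malat1. A UMI (unique molecular identifier) stands for 1 captured RNA molecule, read near its 3′ end. The rule found 118 members among 293 injured oligodendrocyte barcodes, among 410 barcodes of the injured library and among 1369 barcodes in all. Members held 91775 UMIs together, from 502 to 1466 per barcode (median 740), and from 201 to 712 genes per barcode (median 349).

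The study asked how the oligodendrocyte lineage responds to optic nerve crush (ONC). The injured library was made from 5 crushed nerves and the uninjured library from 5 uninjured nerves, all of wildtype 129S1/SvlmJ mice, with males and females pooled. Mice had ONC at 8 weeks of age and nerves were taken at 10 weeks, which is 2 weeks after ONC. The sample labels give P56 and the post-crush time for both libraries, and the uninjured library was assigned by its title. The injured library held 410 barcodes of the oligodendrocyte lineage (median 1304.5 UMIs) and the uninjured library 959 (median 2782 UMIs), and they shared 0 barcodes. Each condition is 1 pool of nerves and 1 library, so no difference between libraries has a replicate check, and every interval below is a 95% interval of counting error alone. In such data, fewer intact cells and less RNA per cell cannot be told apart.

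Oligodendrocytes wrap axons in myelin and make its proteins in different places. Membrane-spanning myelin proteins such as MAG are made at the endoplasmic reticulum (ER) of the cell body and then shipped out. The mRNA of myelin basic protein, Mbp, is carried in granules along microtubules into the cell's processes and is translated there, and Mobp mRNA is also found at such distant sites. RNA kept in the nucleus, such as Malat1, is often used as a sign that a barcode holds a nucleus.

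Comparison barcodes came from both libraries. Of the uninjured oligodendrocyte barcodes, 247 held under 1500 UMIs, and 33 of those also met the Malat1 limit. The comparison with these 33, matched on the whole rule, was added after the data were seen. In the injured library, 37 further oligodendrocyte barcodes held under 1500 UMIs, and 175 oligodendrocyte barcodes of any depth were not members. A further 53 injured barcodes typed as newly formed oligodendrocytes (NFOs) were also under both limits. Median UMIs were 851 in the 247 uninjured barcodes, 881 in the 33, 610 in the 37, 5979 in the 175 and 888 in the 53 NFOs.

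Barcodes under both limits made up 40.3% of injured oligodendrocytes (118 of 293, exact binomial interval 34.6% to 46.1%) and 3.85% of uninjured oligodendrocytes (33 of 857, 2.67% to 5.37%). Among barcodes under 1500 UMIs, 76.1% of injured and 13.4% of uninjured barcodes were poor in Malat1. The share depended on depth in the injured library. It was 67.0% at 500 to 750 UMIs (61 of 91), 95.2% at 750 to 1000 UMIs (40 of 42), 77.3% at 1000 to 1500 UMIs (17 of 22) and 56.2% at 1500 to 2500 UMIs (9 of 16). At 2500 to 5000 UMIs it was 18.8% (6 of 32), and 0 of 90 barcodes with 5000 or more UMIs were poor in Malat1, with an exact upper limit of 4.02%. In the uninjured library the share was between 3.86% and 17.1% in the bands from 500 to 5000 UMIs, and 0 of 282 above that.

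**Figure D1:**
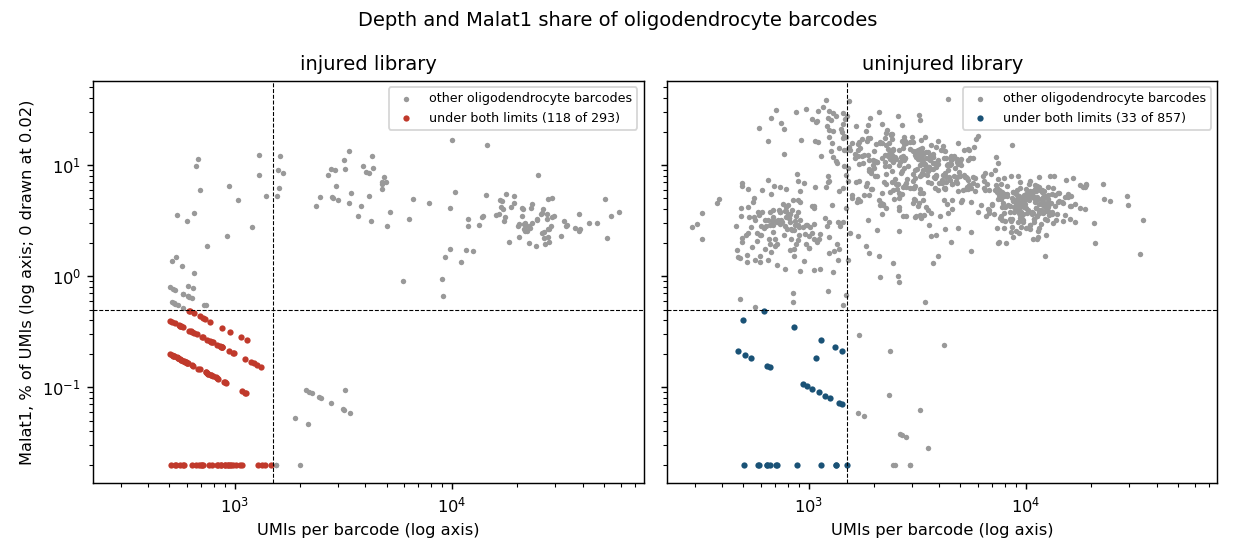
Malat1 share of UMIs against UMIs per barcode for oligodendrocyte barcodes of the injured library (left) and the uninjured library (right), both axes on a log scale, with 1 point per barcode and the limits of the rule as dashed lines. A group of 118 injured points fills the lower left corner, where the uninjured library has 33, and Malat1 at 0 is drawn at 0.02%.

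The Malat1 limit fell in a thinly filled range in the uninjured library and in a better filled range in the injured library. Among barcodes under 1500 UMIs, 19 of 155 injured and 7 of 247 uninjured barcodes lay between 0.5% and 1%. The 3 injured barcodes just inside the limit had 0.464%, 0.482% and 0.487% Malat1, and the 3 just outside had 0.520%, 0.545% and 0.546%. At these depths 1 UMI decides the side. The Malat1-poor injured barcodes nearest to the depth limit had 1331, 1381 and 1466 UMIs inside it and 1546, 1556 and 1902 outside. No Malat1 UMI was found in 32 of the 118 members, and the median member had 0.167%.

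Members held fewer different RNAs than barcodes of equal depth elsewhere. After thinning each barcode to 500 UMIs, members had a median of 270.5 genes, compared with 303 in the other shallow injured oligodendrocytes, 326 in the 33 uninjured barcodes poor in Malat1, 356.5 in the shallow uninjured oligodendrocytes and 365 in the NFOs. Thinning left out 19 of 247 shallow uninjured barcodes, which included 2 of the 33, and no injured barcode of these classes. Unthinned, the medians were 349 genes in members, 331 in the other shallow injured barcodes, 487 in the 33, 580 in the 247 and 578 in the NFOs.

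Much of the RNA in members came from 3 genes. Fth1, the heavy subunit of the iron store ferritin, gave 7446 UMIs or 8.11% of all member UMIs. Gm42418, an annotated noncoding transcript that overlaps a ribosomal RNA repeat, gave 7153 UMIs (7.79%), and Mbp gave 6498 (7.08%). Together they made up 23.0% of member UMIs, compared with 15.6% in the other shallow injured oligodendrocytes, 7.83% in the NFOs, 6.55% in the 33 uninjured barcodes and 4.32% in the 247. The RNA with most UMIs was Gm42418 in 47 members, Fth1 in 44 and Mbp in 25. It was Malat1 in 0 members, as the rule requires, and in 121 of the 247 shallow uninjured oligodendrocytes. Fth1 (ENSMUSG00000024661) lies on chromosome 19 of GRCm38 at 9980598 to 9985098, and Gm42418 (ENSMUSG00000098178) on chromosome 17 at 39846958 to 39848788.

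The Mbp share varied widely among members. It ran from 0% to 30.1% of a barcode's UMIs with a median of 3.47%, and its percentiles 10 and 90 were 0.590% and 19.6%. In the 247 shallow uninjured oligodendrocytes it ran from 0.0942% to 6.06% (median 1.38%), and in the 33 poor in Malat1 from 0.350% to 5.45% (median 1.57%). Mbp exceeded 10% of UMIs in 35 of 118 members (29.7%), in 6 of the 37 other shallow injured oligodendrocytes, in 0 of 247 and 0 of 33 uninjured barcodes and in 0 of 53 NFOs. The members thus extended above the whole uninjured range, while their low end overlapped it. The 12 members with the highest Mbp shares held 34.5% of all member Mbp UMIs.

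**Figure D2:**
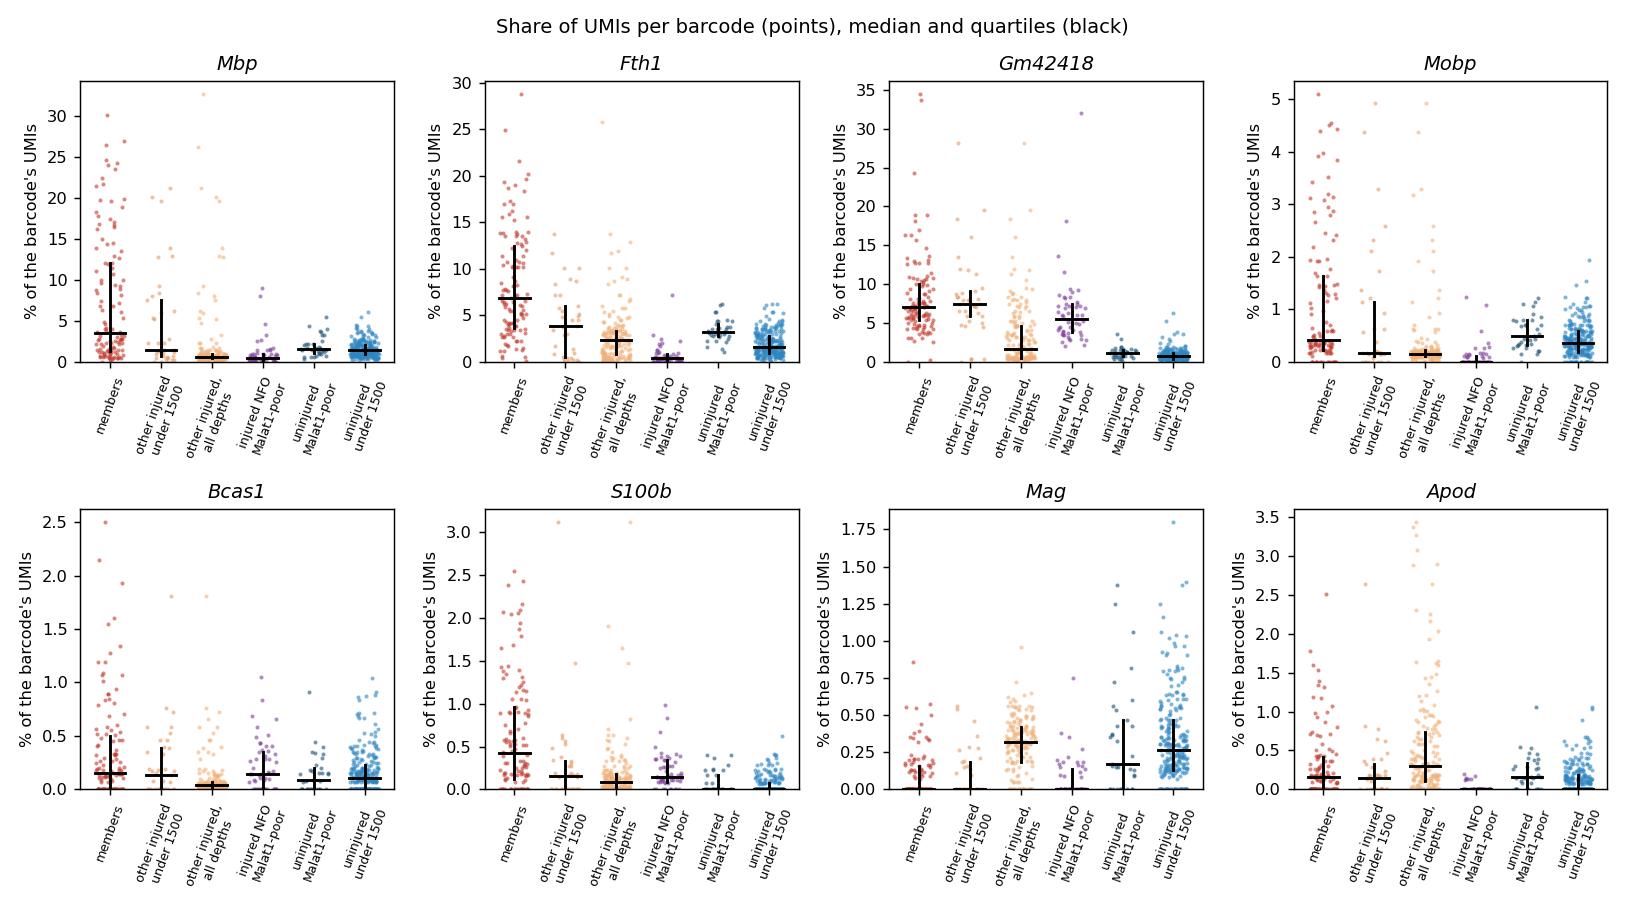
Percent of a barcode's UMIs from 8 RNAs, with 1 point per barcode in each of 6 classes, and black marks for the median and quartiles. Mbp, Fth1, Mobp and S100b reach higher in members than in the uninjured classes, Gm42418 is high in the shallow injured classes, and Mag is at 0 in the median member.

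The class had been described by 5 RNAs, Mbp, S100b, Trp53inp2, Map4 and Cenpb, chosen with its results known, so their high level is a description. S100b encodes a calcium-binding protein, Trp53inp2 a protein of autophagy, Map4 a microtubule-associated protein and Cenpb a protein that binds centromeric DNA. Members with at least 1 UMI numbered 116 for Mbp, 93 for S100b, 58 for Map4, 44 for Cenpb and 32 for Trp53inp2. Against the 33 uninjured barcodes poor in Malat1, CPM (UMIs per 1000000 UMIs of a class) was 3.81-fold higher for Mbp (3.49 to 4.15), 8.23-fold for S100b (5.43 to 13.1) and 6.50-fold for Map4 (2.90 to 18.1). It was 5.86-fold higher for Cenpb (2.19 to 22.1) and 6.61-fold for Trp53inp2 (2.15 to 32.9), where the 33 barcodes held 4 and 3 UMIs. Against the 37 other shallow injured oligodendrocytes, S100b was 2.62-fold higher (2.01 to 3.46), while the ratios of the other 4 lay between 1.29 and 1.71. The median gene was also higher in members there, and these ratios are not scaled by it.

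Of the 5 RNAs, Trp53inp2, Map4 and Cenpb marked mainly a portion of the members, those with a high Mbp share. Members over 5% Mbp numbered 51 and the rest 67, a division made after the data were seen, with 5 members between 4% and 6%. Trp53inp2 stood at 1360 CPM in the 51 (1010 to 1790) and at 166 CPM in the 67 (75.8 to 315). Map4 stood at 2640 and 350 CPM, and Cenpb at 1600 and 203 CPM. S100b was nearer, at 10300 CPM in the 51 and 3410 CPM in the 67, with a UMI in 47 of the 51 and in 46 of the 67. A UMI of Cenpb was present in 35 of the 51 and in 9 of the 67, although the 67 were the deeper barcodes, with medians of 815 and 706 UMIs.

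Other RNAs moved with Mbp from member to member. Spearman's rho with the Mbp share, after Mbp was taken out of the total, was 0.822 for Mobp, 0.773 for Bcas1, 0.758 for Fth1, 0.685 for Tpt1 and 0.538 for S100b over 118 members. Bcas1 encodes a protein of myelinating oligodendrocytes and Tpt1 the translationally controlled tumour protein. Of the 40 other RNAs with at least 200 UMIs in members, 12 had a rho above 0.3 and 5 one under -0.3. The 5 were Actb (-0.460), Apod (-0.411), Mal (-0.396), Aplp1 (-0.329) and Ptgds (-0.321). These values share 1 library, and the Mbp share itself ran with depth (rho -0.395 with UMIs per barcode without Mbp, -0.135 with all UMIs).

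Other RNAs were higher in the 67 members with less Mbp. Apod, a lipid carrier, stood at 4790 CPM in the 67 members (4230 to 5410) and at 1040 CPM in the 51 (739 to 1420). Mal, a proteolipid of myelin membranes, stood at 3500 and 1040 CPM. Car2, the cytosolic carbonic anhydrase, stood at 2870 and 320 CPM, and Klk6, a secreted protease, at 1990 and 480 CPM. Gm42418 was alike on both sides, at 77100 CPM in the 67 and 79200 CPM in the 51. Members were therefore not uniform, and a summed level over all 118 mixes both ends.

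**Figure D3:**
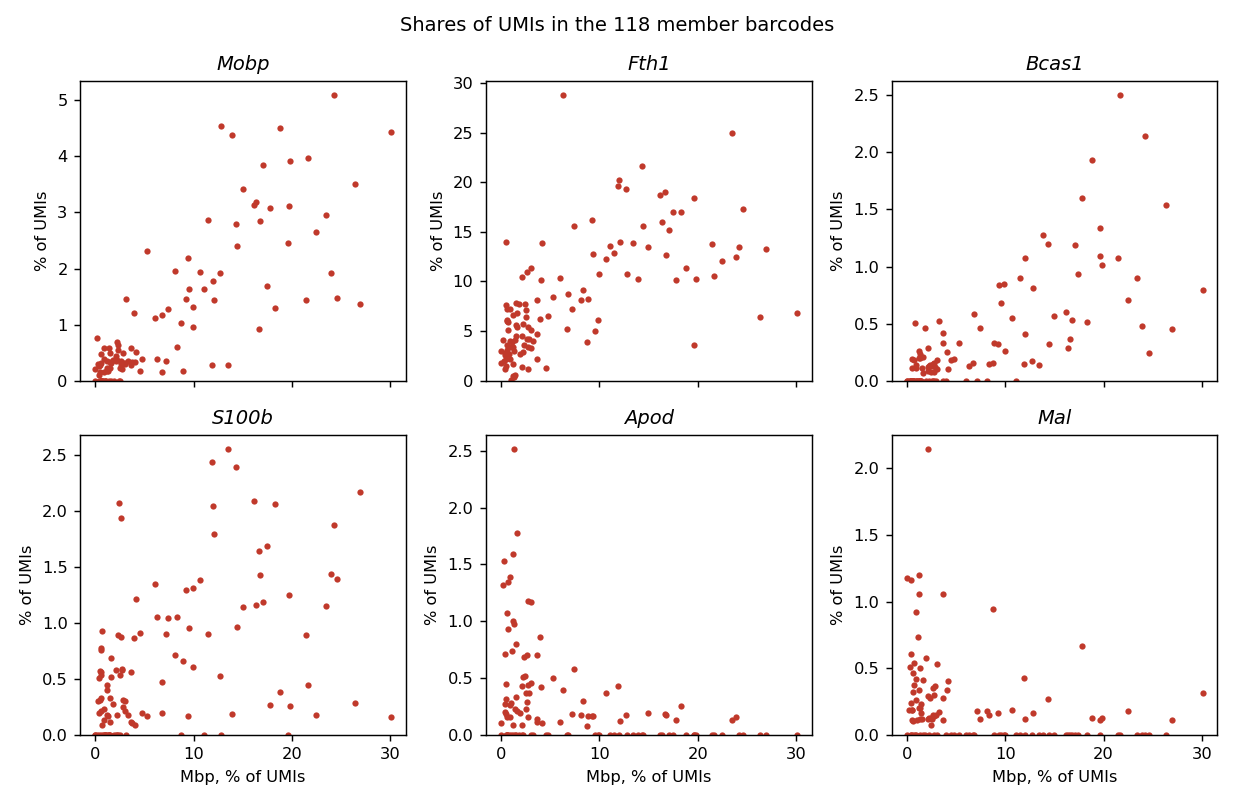
Shares of 6 RNAs against the Mbp share in the 118 members, each axis in percent of UMIs, 1 point per barcode. Mobp, Fth1 and Bcas1 extend upward with Mbp (rho 0.822, 0.758 and 0.773 without Mbp in the total), S100b does so with more scatter (rho 0.538), and high shares of Apod and Mal occur at low Mbp shares.

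The same direction was partly present in uninjured barcodes. In the 33 barcodes poor in Malat1, rho with the Mbp share was 0.646 for Mobp, 0.386 for Bcas1, 0.268 for S100b and 0.121 for Fth1. In the 37 other shallow injured oligodendrocytes it was 0.761 for Mobp, 0.731 for Fth1 and 0.782 for S100b. These are descriptions over 33 and 37 barcodes.

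A gene was called when its CPM differed at least 2-fold and the interval of the ratio left out 1, among genes with at least 50 UMIs in both classes together. Against the 247 shallow uninjured oligodendrocytes, 225 of 925 genes (24.3%) were called higher in members and 402 (43.5%) lower. The median gene had a log2 ratio of -0.56, so list values for this comparison are set beside that shift. Against the 33 uninjured barcodes that met the same rule, 49 of 302 genes (16.2%) were called higher and 45 (14.9%) lower, with a median log2 ratio of 0.07. The classes compared also differ in barcodes (33 and 247) and in genes tested (302 and 925), so the counts of calls of these comparisons are not set against each other.

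Nuclear RNAs were low in members, which the rule favours, since Malat1 chose them. Neat1, the scaffold RNA of paraspeckles, had 18 UMIs in members and 989 in the 247 uninjured barcodes, a 22.6-fold lower level (14.2 to 38.3). Kcnq1ot1, an imprinted noncoding RNA, had 1 UMI in members and 131 in the 247. Gm26917, a noncoding transcript, had 1 and 127. Malat1 aside, these 3 nuclear RNAs were the ones on the list with enough UMIs and all were called lower, in a comparison where 43.5% of all genes were.

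Lists of myelin mRNAs set by where their proteins are made gave different levels. A list of 9 mRNAs that are found in oligodendrocyte processes, Mbp, Mobp, Car2, Mapt, Fth1, Padi2, Kif1a, Sh3gl3 and Trp53inp2, summed to 16.6% of member UMIs. Its summed level was 2.56-fold that of the 33 uninjured barcodes (2.44 to 2.68) and 3.88-fold that of the 247 (3.79 to 3.98). Mbp and Trp53inp2 are also class markers, chosen with results known, so the high sum is a description. Mbp and Fth1 alone gave 6498 and 7446 of the 91775 member UMIs. Of a list of 20 myelin membrane and secreted proteins made at the ER, 8 of 11 tested genes were called lower than in the 33 and 0 higher. Over all genes tested there, 14.9% were called lower and 16.2% higher. These 20 genes do not cover all such mRNAs, and their summed level speaks for them alone. It was 1.67% of member UMIs, 1.98-fold lower than in the 33 (1.82 to 2.14). Against the 247 the 20 genes were 1.81-fold lower (1.71 to 1.91), with 12 of 19 called lower and 1 higher. Over all genes 43.5% were called lower and 24.3% higher, and a scaling by the median gene brought the list ratio to 0.813.

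The first of these lists rested on few of its members. Against the 33, Mbp, Fth1 and Trp53inp2 were called higher, Mobp stood at 1.94-fold (1.64 to 2.31) and Car2 was called 2.63-fold lower (2.09 to 3.30). Car2 mRNA has a place on the list beside Mbp, yet it was found with Apod and Mal in members. Mapt, the gene of tau, stood at 1.92-fold (1.01 to 4.04). Mobp (ENSMUSG00000032517) lies on chromosome 9 at 120149707 to 120181484.

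Among the ER-made proteins, Mag, an adhesion molecule facing the axon, had 90 UMIs in members and was 3.06-fold lower than in the 33 (2.26 to 4.14). Mog, on the outer myelin surface, was 4.27-fold lower (3.04 to 6.03), Cldn11, the tight junction claudin of myelin, 3.35-fold (2.55 to 4.42), and Trf, transferrin, 2.94-fold (2.37 to 3.65). Among cytosolic myelin proteins, Cnp, an enzyme of myelin, was 4.10-fold lower (3.35 to 5.03). Mag (ENSMUSG00000036634) lies on chromosome 7 at 30899176 to 30914873.

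Ratios within a barcode class do not depend on scaling. Members held 6.95 Mbp UMIs per Mobp UMI (6.49 to 7.45), compared with 3.55 in the 33 uninjured barcodes (2.97 to 4.26), 3.90 in the 247, 5.96 in the 37 other shallow injured oligodendrocytes (5.08 to 7.01) and 9.67 in the NFOs (7.20 to 13.3). Mbp thus exceeded Mobp by more in members than in uninjured oligodendrocytes, although both were high. Members held 6.37 S100b UMIs per Mag UMI (5.09 to 8.04), against 0.253 in the 33 and 0.131 in the 247. Injured classes lay between, with 1.88 in the 37 (1.21 to 2.96) and 2.97 in the NFOs (2.00 to 4.52). Of the members, 58 had Mbp and S100b without Mag, which is 49.2% (39.8% to 58.5%), compared with 9 of the 247 shallow uninjured oligodendrocytes (3.64%). The combination was also present in 14 of the 37 other shallow injured oligodendrocytes (37.8%, 22.5% to 55.2%) and in 5 of the 33 (15.2%). Thinned to 500 UMIs, the shares were 50% of members, 4.39% of shallow uninjured oligodendrocytes, 35.1% of the 37 and 9.68% of the 33 class. Among NFOs, 26 of 53 (49.1%) had the combination, and 22 of 53 (41.5%) after thinning. Uninjured NFOs of any depth had it in 20 of 44 (45.5%), and in 13 of 42 (31.0%) after thinning. The combination was thus not particular to members or to the injured library. Among the deeper OPC barcodes it was present in 24 of 58 uninjured ones (41.4%) as deposited, but in 3 of 56 (5.36%) after thinning, and in 4 of 17 injured ones (23.5%) and 0 of 17 after thinning.

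Oligodendrocyte precursor cell (OPC) barcodes served as a reference for free myelin RNA, since OPCs should lack mature myelin RNAs. The 17 injured OPC barcodes (median 4120 UMIs) held on average 2.12 Mbp UMIs per barcode, against 55.1 in members and 7.59 Fth1 UMIs against 63.1. A Mag UMI was present in 6 of 17 OPC barcodes (35.3%, 14.2% to 61.7%) and in 47 of 118 members (39.8%, 30.9% to 49.3%), so the shares overlapped at unequal depth. Mag averaged 0.763 UMIs per member (at most 5) and 0.353 per injured OPC barcode (at most 1), and stood at 1360 CPM in the 67 members with less Mbp and at 427 CPM in the 51. How much of the Mag in members is free RNA was not tested. S100b UMIs per Mag UMI were 10.0 in injured and 9.67 in 58 uninjured OPC barcodes, against 6.37 in members. Mbp UMIs per Mag UMI were 72.2 in members (58.6 to 89.9) and 55.6 in uninjured OPC barcodes (29.0 to 122, from 500 and 9 UMIs), where Mbp averaged 8.62 UMIs per barcode. In injured OPC barcodes, from the same library as members, it was 6.0 (2.5 to 17.4, from 36 and 6 UMIs). In the other shallow injured oligodendrocytes it was 32.7 (23.1 to 47.7), and in the NFOs poor in Malat1 13.9 (9.84 to 20.4). A high S100b to Mag ratio was thus present in OPC barcodes of both libraries, and a high Mbp to Mag ratio in uninjured ones. The paper states that OPCs and maturing NFOs express S100b, so OPC barcodes are no reference for free S100b RNA. How much of the S100b in members is free RNA was not tested.

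Ribosomal protein mRNAs, short transcripts that most cells translate heavily, made up 11.2% of member UMIs. Of 78 tested against the 247 shallow uninjured oligodendrocytes, 65 were called higher, beside 24.3% of all genes, and 0 lower, with a median log2 ratio of 1.54 beside -0.56 over all genes. Against the 33 matched uninjured barcodes, 8 of 71 were called higher and 0 lower, beside 16.2% and 14.9% of all genes. The list ratio there was 1.36 (1.3 to 1.42). Against the NFOs poor in Malat1 the list ratio was 1.04 (1 to 1.07). Of 76 tested, 0 were called higher and 3 lower, beside 18.1% and 22.4% of all genes. Rpl41 and Rps29 were among the most abundant, with 294 and 395 member UMIs. Against the 33, Rpl41 stood at 1.87-fold (1.39 to 2.56) and Rps29 at 1.27-fold (1.02 to 1.59).

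RNAs encoded by the mitochondrial genome were low against uninjured barcodes of the same kind. They made up 5.88% of member UMIs, and their summed level was 2.04-fold lower than in the 33 (1.96 to 2.13). Of 12 tested, 6 were called lower and 0 higher, beside 14.9% and 16.2% of all genes. mt-Nd3 was 5.06-fold lower (3.73 to 6.91), mt-Nd1 4.29-fold (3.40 to 5.43) and mt-Co3 2.89-fold (2.61 to 3.21), whereas mt-Nd4 stood at a ratio of 1.03 (0.875 to 1.22). The per-barcode mitochondrial share had a median of 5.19% in members and 10.6% in the 33, and the authors' filter removed cells above 20% from both libraries. The median share was 6.54% in the 247, 5.59% in the 37 other shallow injured oligodendrocytes, 4.1% in the 175 and 3.21% in the NFOs. A share under that of the 33 was thus not particular to members. Against the 247 the list was 1.35-fold lower, but scaling by the median gene turned this to 1.09-fold higher. Nuclear-encoded genes of oxidative phosphorylation had a list ratio of 0.734 against the 33 (0.674 to 0.799), with 2 of 14 called lower, near the 14.9% over all genes.

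RNAs of cholesterol synthesis were scarce in members. All 19 listed genes together had 39 UMIs, or 425 CPM (302 to 581). This was 10.7-fold lower than in the 247 (7.79 to 15.2), with 10 of 10 tested genes called lower beside 43.5% of all genes, and 10.4-fold lower than in the 33 (7.23 to 15.3). Hmgcs1, an early enzyme of the pathway, had 10 UMIs in members and 42 in the 33, a 12.7-fold lower level (6.28 to 28.4). Msmo1, a later enzyme, had 0 UMIs in members and 78 in the 247, where it was at least 10.7-fold lower with a floor of 3 UMIs over the members. Against the 175 other injured oligodendrocytes the list was 2.12-fold lower (1.54 to 2.98) and 2 of 14 genes were called lower, near the 16.0% over all genes. Scaling by the median gene brought this to 1.32-fold lower with 0 genes called.

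Transcription factors of the lineage had few UMIs. The 12 listed genes summed to 134 UMIs in members, and their level was 1.74-fold lower than in the 33 (1.3 to 2.32). Against the 247, 6 of 8 were called lower and 0 higher, beside 43.5% of all genes called lower and a median log2 ratio of -0.56. Myrf, which drives myelin genes, had 3 UMIs in members and 116 in the 247, a 15.9-fold lower level (5.31 to 78.3), and Sox10 had 3 and 73. Olig1 had 37 UMIs in members, with a ratio of 1.03 against the 247 (0.684 to 1.53). Zeb2, another factor of oligodendrocyte maturation, was 2.03-fold lower against the 247 and 2.13-fold higher against the 33 (1.05 to 4.89), where the latter held 9 UMIs.

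Genes of acute stress gave no common direction. The 14 immediate early genes summed to 1569 CPM, with a list ratio of 1.52 against the 247 (1.23 to 1.88), 1.19 against the 33 (0.832 to 1.73) and 0.420 against the 175 other injured oligodendrocytes (0.353 to 0.495). Fos was 7.95-fold lower than in the 175 (4.43 to 15.9) and Jun 4.75-fold (2.71 to 9.22). Heat shock and chaperone genes had a list ratio of 0.756 against the 33 (0.644 to 0.889), with 0 of 4 called. C4b, a complement gene, had 58 UMIs in members and was 2.25-fold lower than in the 33 (1.48 to 3.39). Genes of centromeres and chromatin, the list that holds Cenpb, had a ratio of 0.725 against the 33 (0.609 to 0.866), with 1 of 5 called higher and 2 lower. The cytoskeletal list gave 0.925 (0.862 to 0.993), with 3 of 14 called higher and 4 lower. Over all genes tested against the 33, 16.2% were called higher and 14.9% lower.

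**Figure D4:**
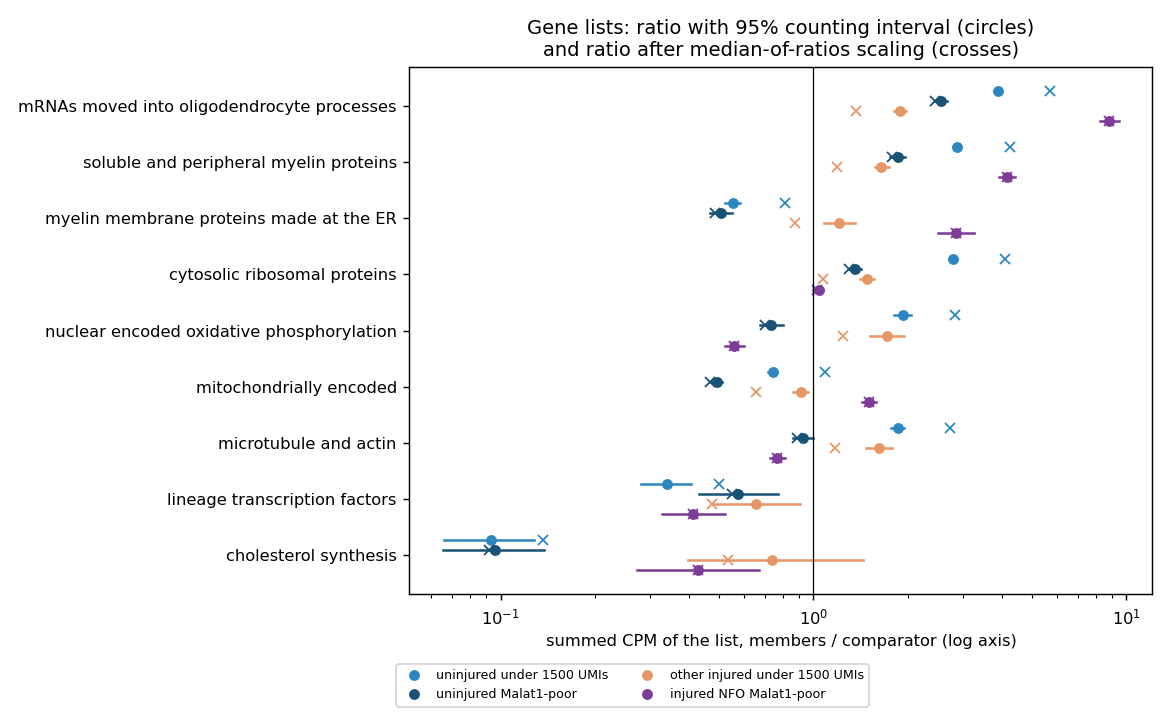
Summed CPM of 9 gene lists in members over that in 4 comparison classes, on a log axis, with 95% counting intervals (circles) and after scaling by the median gene (crosses). The list of process mRNAs, which holds the class markers Mbp and Trp53inp2, lies above 1 against all 4 classes. The ER list lies at 0.506 against uninjured barcodes poor in Malat1, and cholesterol synthesis lies at 0.0933 and 0.0961 against the uninjured classes.

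The highest ratios against the 247 uninjured barcodes were those of Lyz2, Spp1, Apoe and Sparc, and the first 3 are on the macrophage list. Spp1, osteopontin, had 60 UMIs in members and 0 in the 247, which is at least 48.6-fold higher with a floor of 3 UMIs over the class. Lyz2, lysozyme, had 58 and 1, and Apoe, the main lipid carrier of the brain, had 668 and 43, a 37.8-fold higher level (27.7 to 52.7). The list of 20 macrophage and microglia genes had 20 with a UMI in members and summed to 13850 CPM, against 785 CPM in the 247, 17910 CPM in the 37 other shallow injured oligodendrocytes and 2517 CPM in injured OPCs. Its 8 defining genes, which include C1qa, C1qb, Tyrobp and Ptprc, had at least 1 UMI in 67 members (56.8%) and in 9 of 17 injured OPC barcodes (52.9%).

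Counted per barcode, the defining macrophage genes, Lyz2 and Spp1 varied little between classes of the injured library, and Apoe varied more. The defining macrophage genes gave 1.28 UMIs per member, 1.16 per barcode in the 175 other injured oligodendrocytes, 1.09 in the NFOs and 0.941 in the OPCs, against 0.0405 in the 247 uninjured barcodes. Lyz2 gave 0.492, 0.434, 0.434 and 0.471 UMIs per barcode, and Spp1 0.508, 0.429, 0.698 and 0.353. The ratio of C1qb to Lyz2 was 0.655 in members (0.423 to 1) and 0.724 in the 175 (0.502 to 1.04). Apoe gave 5.66 UMIs per member, 53.1 per barcode in the 175, 4.42 in the NFOs and 10.1 in the OPCs, and Apoe UMIs per Lyz2 UMI were 11.5 in members (8.80 to 15.3) and 122 in the 175 (97.6 to 155). The defining UMIs were unevenly spread, with none in 43.2% of members and at most 11 in 1 barcode. At least 3 were present in 16.9% of members, 12.0% of the 175, 10.8% of the 37 and 7.55% of the NFOs. The source of these UMIs was not tested, and Spp1 and Lyz2 are not taken as RNAs of members. The counts of genes called higher against uninjured barcodes and the macrophage list sum do include them. Gm42418 gave 60.6 UMIs per member, 136 per barcode in the 175, 56.1 in the NFOs and 102 in the OPCs, against 10.8 in the 33 uninjured barcodes. Its part in the other ratios was not tested beyond the scalings given.

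Without barcodes that held 2 or more defining macrophage UMIs, 83 members were left. Against the 33 uninjured barcodes, Mbp, S100b, Fth1 and Mag then had ratios of 4.13, 8.98, 2.53 and 0.340, and 38 genes were called higher and 36 lower. Sparc, a matrix protein that led the fibroblast list, had 137 UMIs in members, and the fibroblast genes Col1a1, Col1a2, Dcn and Igfbp6 had 1, 4, 6 and 3. The endothelial genes Cldn5, Vwf and Pecam1 and the Schwann cell genes Prx, Pmp2 and Ncmap had 0 UMIs, each of which allows at most 3 of 91775. The OPC genes Cspg4 and Ptprz1 had 0 and Pdgfra had 2. Of the NFO list, Bmp4 and Gpr17 had 0 UMIs, Enpp6 4 and Fyn 8. Bcas1, also on that list, had 307. Among astrocyte genes besides S100b, Gfap had 25 UMIs and Aldh1l1 had 0. Globin RNAs had 9 UMIs. The mature oligodendrocyte genes Mbp, Mobp, Cnp, Mag and Mog all had UMIs in members.

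Members were compared with injured barcodes of the same depth to see what the Malat1 limit itself set apart. Against the 37 other shallow injured oligodendrocytes, 41 of 272 genes (15.1%) were called higher and 9 (3.31%) lower, with a median log2 ratio of 0.47. After scaling by the median gene the counts were 10 higher and 16 lower. Without that scaling, Fth1 was 2.26-fold higher (2.11 to 2.42). Rpl36a had 85 and 3 UMIs, and Map1b, a microtubule-associated protein, 61 and 3. Among the genes called lower, AC160336.1 had 404 of its 406 UMIs in 1 barcode of the 37, and 4933434E20Rik had 67 of 68, so those calls rest on single barcodes. Gm42418 did not differ between the classes, beyond counting error, with an unscaled ratio of 0.985 (0.938 to 1.04).

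Against the 175 other injured oligodendrocytes of any depth, 189 of 5969 genes (3.17%) were called higher in members and 954 (16.0%) lower, with a median log2 ratio of -0.68. Depth differs strongly here, and a scaling by the median gene changed the counts to 467 and 289. Mobp was 6.07-fold higher (5.64 to 6.52), Bcas1 7.92-fold (6.94 to 9.02) and Fth1 3.41-fold (3.33 to 3.49). Arl6ip1, a protein of the ER membrane, had 1 UMI in members and 699 in the 175. Aspa, an enzyme that releases acetate for lipid synthesis, had 2 and 1069 UMIs, a 22.2-fold lower level (6.13 to 184). Rtn4, the gene of Nogo, had 54 and 6741 UMIs, a 5.18-fold lower level (3.97 to 6.91).

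The NFOs poor in Malat1 shared library, depth range and Malat1 limit with members and differed in the type given by the authors. Of 343 genes, 62 (18.1%) were called higher in members and 77 (22.4%) lower. Of 13 tested genes of mature oligodendrocytes, 9 were called higher in members and 1 lower. Klk6, which is not on that list, was 33.2-fold higher (9.01 to 277). On the list, Ermn, a cytoskeletal protein of late oligodendrocytes, was 31.9-fold higher (8.64 to 266) and Mal 24.2-fold (10.2 to 75.1). Fth1, on the list of process mRNAs, was 11.4-fold higher (10.2 to 12.7). Cnp was called 2.23-fold lower (1.81 to 2.75, 170 and 200 UMIs), and Mag (ratio 1.4) and Cldn11 (0.970) were not called. All 6 tested process mRNAs, the class markers Mbp and Trp53inp2 among them, were called higher, with a list ratio of 8.84 (8.26 to 9.46). Members were lower in Tubb2b, a tubulin of immature neural cells, with 1 against 104 UMIs, in Fyn by 19.0-fold (9.18 to 45.4) and in Tuba1a by 11.3-fold (8.83 to 14.6). Fyn is a kinase that acts on Mbp mRNA translation. These genes are among those that set the types apart, so the difference is a description of the typing.

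Transcript length differed with the comparison. Against the 247 shallow uninjured oligodendrocytes, genes called higher had a median spliced length of 1242 bases and 5 exons, and those called lower 4106.5 bases and 13 exons, beside 2809.5 bases and 9 exons over all genes tested. Against the 33 matched on Malat1 the medians were 1716 bases for genes called higher and 1815.5 for those called lower, beside 1411 bases for all. The second comparison had fewer barcodes and tested 302 genes in place of 925, whose median length was shorter, so the part of the Malat1 match in this difference was not tested. Lengths are those of the transcript with the longest coding sequence of each gene in GENCODE M21, found for 99.5% and 99.0% of the genes tested, and not of the isoforms in these cells.

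**Figure D5:**
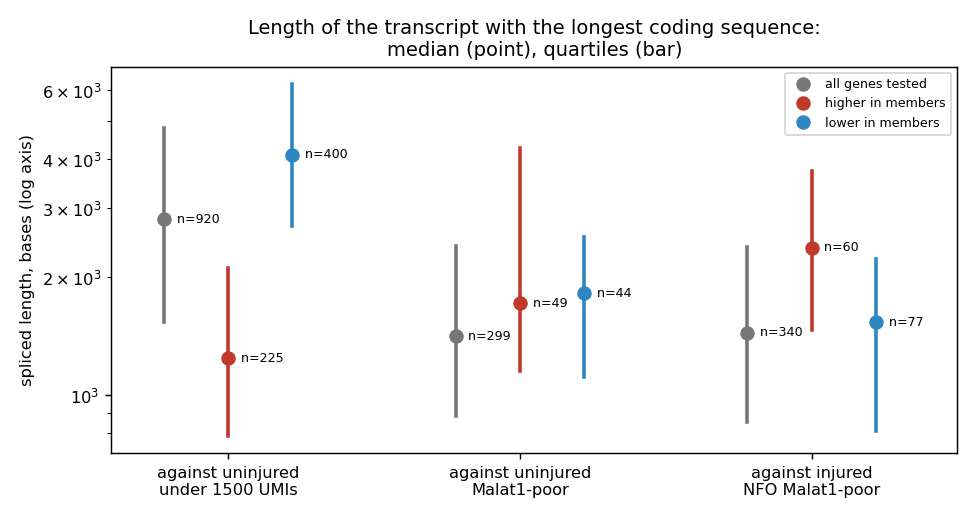
Spliced length in bases (log axis) of all genes tested, of those higher and of those lower in members, as median (point) and quartiles (bar), for 3 comparison classes. Against shallow uninjured barcodes the medians were 1242 (higher) and 4106.5 (lower) bases, and against the 33 poor in Malat1 they were 1716 and 1815.5.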

How the data were processed

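Droplet libraries (10x) of optic nerve cells were analysed, 1 per condition. According to the study's methods, the authors aligned reads to mm10 with Cell Ranger 1.3 (bcl2fastq 2.17.1.14), kept cells with at least 200 genes, at most 20% mitochondrial reads and at most 150000 UMIs, and normalised with Seurat 4.0.3. The deposited values are the natural log of 1 plus 10000 times a gene's UMIs over the barcode's total. Types are those the authors deposited. UMIs came out whole (within 0.001) in 100% of barcodes and were recovered from these values. No doublet caller was run.

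UMIs were summed over the barcodes of a class and given as CPM, with exact Poisson intervals for levels, exact binomial intervals for shares and exact conditional intervals for ratios (95%). No p-value was computed, since each condition has 1 library. A class at 0 UMIs was given a floor of 3 UMIs over the class. The interval method was run on simulated Poisson counts summed over each class. Those counts lack the uneven spread of UMIs over barcodes, so they cannot show how the intervals hold in these data. Alternatives changed the UMI limit, the Malat1 limit, the scaling, the minimum of 50 UMIs, a pseudocount, thinning, barcode filters and single barcodes. The comparison with uninjured barcodes poor in Malat1, the depth bands, the division at 5% Mbp and the scaled list ratios were chosen after seeing the data. The members and all gene lists were chosen with earlier results of these data known. Some genes are not reported here, and the lists, the genes named and the figures are given without them.

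Genes were named by a rule: the class markers, genes the study named, the 15 with highest CPM in members, the called genes with the most extreme ratios (10 each way against shallow uninjured oligodendrocytes, 5 each way otherwise), and the defining and up to 4 most abundant genes of each list. Aplp1, Ptgds and Mapt were named after their values were seen. Python 3.11.15, numpy 2.4.6, scipy 1.17.1, pandas 2.3.3 and matplotlib 3.10.9 were used. Coordinates and lengths come from GENCODE M21 (GRCm38, the assembly of mm10).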

Additional observations from a re-analysis of the deposited data

How the results depend on the processing

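Of 6329 gene ratios under 15 alternatives, 5633 stayed within the interval of the reported ratio and 696 moved outside it. Among the ratios of called genes, 0 changed direction. Changes of direction among genes not called were not counted. Of 150 counts of called genes, 105 stayed within 1.5 times. No paired analysis was possible because each condition has 1 library. Counting error is the only error covered, and low UMI totals limit the calls.

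Below, counts are of genes called higher or lower in members. Against shallow uninjured oligodendrocytes, the count lower was 181 with a limit of 1000 UMIs, 957 with 2500 UMIs, and 222 among barcodes of 300 or more genes whose mitochondrial share was 10% or less. With at least 20 UMIs per gene, 380 were higher and 1054 lower, with at least 200 UMIs 75 and 40, and after thinning 146 and 173. Against uninjured barcodes poor in Malat1 the counts were 87 and 131 (20 UMIs), 11 and 11 (200 UMIs) and 26 and 22 (300 genes), and 26 lower after thinning. Against the other shallow injured oligodendrocytes, the count higher was 14 (1000 UMIs), 125 (2500 UMIs), 19 (Malat1 under 0.25%), 138 (Malat1 under 1%), 25 (mean over barcodes), 10 (median scaling), 9 (200 UMIs per gene) and 13 (thinned), and the count lower was 16 (2500 UMIs), 14 (Malat1 under 1%), 16 (median scaling), 47 (20 UMIs) and 2 (200 UMIs). Against all other injured oligodendrocytes, the count higher was 467 (median scaling), 123 (200 UMIs) and 77 (thinned), and the count lower 289 (median scaling), 72 (thinned) and 397 (300 genes). Against NFOs, the count higher was 130 (20 UMIs), 14 (200 UMIs) and 40 (thinned), and the count lower 31 (1000 UMIs), 51 (Malat1 under 0.25%), 246 (20 UMIs), 8 (200 UMIs), 30 (thinned), 48 (300 genes) and 47 (without barcodes with 2 or more defining macrophage UMIs). The minimum of UMIs changes how many genes are tested, and thinning and barcode filters leave fewer UMIs. For the other settings the cause was not tested.

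The share under both limits was 34.5% of injured and 2.22% of uninjured oligodendrocytes with 1000 UMIs, and 33.5% and 2.13% with 300 genes. In the injured library it was 29.7% with Malat1 under 0.25% and 46.8% under 1%. List levels in members moved as follows, in CPM. With 1000 UMIs, class markers were at 85300, mature oligodendrocyte genes 104000, macrophage genes 14900, endothelial genes 0, process mRNAs 176000, ER-made myelin proteins 13800, soluble myelin proteins 104000, mitochondrially encoded RNAs 55200, ribosomal proteins 118000, oxidative phosphorylation 17800 and genes the study named 84200. With 2500 UMIs, class markers were at 82100, mature oligodendrocyte genes 103000, macrophage genes 12900, process mRNAs 169000, ER-made proteins 17700, mitochondrially encoded RNAs 61600, cytoskeletal genes 34400 and genes the study named 81300. With Malat1 under 0.25%, class markers were at 67100, mature oligodendrocyte genes 90200, NFO genes 3170, astrocyte genes 6120, nuclear RNAs 1240, process mRNAs 148000, ER-made proteins 18700, soluble myelin proteins 86300, ribosomal proteins 107000, oxidative phosphorylation 20800, cytoskeletal genes 34200 and genes the study named 66900. With Malat1 under 1%, macrophage genes were at 15200, nuclear RNAs 2330 and ribosomal proteins 115000.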
